A study of Mus musculus with 24 samples.

Results

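The core genes of the circadian clock were followed in 4 tissues of young and aged mice. The 10 genes were Arntl, Npas2, Per1, Per2, Per3, Cry1, Nr1d1, Nr1d2, Dbp and Ciart, and they are 10 of 22911 genes whose symbol could be matched to a probe of the array. They were chosen by symbol: a probe counted when its RefSeq accession, without the version, belonged to the gene, and the brightest probe of a gene in a tissue stood for it. White adipose tissue (WAT), kidney, lung and liver of male mice of the strain C57BL/6J were taken at 10 weeks (10W) or at 90 weeks (90W) of age, with 3 mice per age and tissue and no treatment named for either age. Total RNA of each sample was hybridised to its own Agilent array in 1 colour (Cy3), which gave 24 arrays. The aged livers carry the numbers 1, 2 and 4, and every other group carries 1, 2 and 3. A name such as young mouse 1 below means the sample of that number in the tissue named. Leaving it out drops the array of that tissue alone. The labels do not say whether samples of 1 number from different tissues come from 1 mouse. The time of day at which the tissues were taken is not given in the sources used here, so age cannot be told apart from a different hour of harvest.

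The clock is a loop of transcription. The protein of Arntl, BMAL1, pairs with CLOCK or NPAS2 and switches on the Per and Cry genes, Nr1d1, Nr1d2, Dbp and Ciart through E-boxes, while PER and CRY proteins inhibit the pair and the REV-ERB receptors, the products of Nr1d1 and Nr1d2, repress Arntl, Npas2 and Cry1 through ROR elements. DBP adds a further layer through D-boxes, among others in the Per genes. In mouse tissues outside the brain, Nr1d1, Dbp and Ciart peak by day, Per2 around the start of the night, Cry1 later in the night, and Arntl and Npas2 near its end. A single harvest therefore samples each gene at 1 point of a daily cycle, and genes that peak at opposite hours are set against each other below.

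Promoters are shown here to place these elements, those of Nr1d1 and Cry1 because they were called with age and those of Ciart and Arntl because they hold several E-boxes and a ROR element. RefSeq on GRCm38.p6 gave a window from 250 bases before to 50 bases after a start for 9 of the 10 genes, all but Per2, with 11 windows in all. Both strands were searched for the E-box CACGTG, the E'-box CACGTT, the D-box TTANGTAA and the ROR elements TAGGTCA and TGGGTCA. These motifs do not overlap each other in the windows printed. The capitals mark the matches, each read on the strand of the gene, so that an E'-box on the other strand appears as its reverse complement.
Nr1d1, chr11:98775328-98775627, minus strand: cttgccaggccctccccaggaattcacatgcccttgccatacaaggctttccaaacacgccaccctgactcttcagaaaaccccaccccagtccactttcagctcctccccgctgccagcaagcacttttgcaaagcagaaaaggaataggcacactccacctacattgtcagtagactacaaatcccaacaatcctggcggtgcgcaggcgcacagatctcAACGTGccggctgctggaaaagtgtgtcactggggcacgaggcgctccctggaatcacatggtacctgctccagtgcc
Cry1, chr10:85185005-85185304, minus strand: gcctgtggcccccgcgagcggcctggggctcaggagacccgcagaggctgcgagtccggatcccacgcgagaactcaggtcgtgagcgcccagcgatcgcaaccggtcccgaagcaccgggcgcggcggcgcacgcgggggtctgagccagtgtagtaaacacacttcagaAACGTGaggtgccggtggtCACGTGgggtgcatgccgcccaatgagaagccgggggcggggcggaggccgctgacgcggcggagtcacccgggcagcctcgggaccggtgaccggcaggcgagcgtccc
Ciart, chr3:95882179-95882478, minus strand: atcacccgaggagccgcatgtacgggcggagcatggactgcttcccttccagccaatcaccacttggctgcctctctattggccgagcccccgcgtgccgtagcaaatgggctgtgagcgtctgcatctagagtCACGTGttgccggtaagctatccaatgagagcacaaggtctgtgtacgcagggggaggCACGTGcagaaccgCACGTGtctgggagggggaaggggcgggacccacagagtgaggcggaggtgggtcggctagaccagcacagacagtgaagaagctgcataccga
Arntl, chr7:113207261-113207560, plus strand: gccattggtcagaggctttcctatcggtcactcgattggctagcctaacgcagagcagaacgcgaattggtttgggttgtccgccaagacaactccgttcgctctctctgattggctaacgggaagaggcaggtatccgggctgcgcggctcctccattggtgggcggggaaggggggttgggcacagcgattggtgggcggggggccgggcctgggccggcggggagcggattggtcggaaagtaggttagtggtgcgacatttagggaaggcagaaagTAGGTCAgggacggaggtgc
The Nr1d1 window held 1 E'-box, whose leftmost base as printed lies at -28 from the start. In the Cry1 window an E'-box at -79 and an E-box at -60 stood close together. The Ciart window held 3 E-boxes, at -116, -58 and -44. Of the Arntl windows, the one printed held a ROR element at +31. Outside the windows printed, Per1 held an E-box at -166 and Per3 held D-boxes at -205 and -158, whereas the windows of Npas2, Nr1d2 and Dbp held no match to these letters. Among 32851 promoter windows of the same length, 7.15% held CACGTG, 4.68% held CACGTT, 2.32% held TTANGTAA, 2.61% held TAGGTCA and 3.98% held TGGGTCA. A match describes the letters and was not tested as a binding site.

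Levels are given as log2 of the processed signal minus the 75th percentile of the array, so that 0 is the 75th percentile itself and 1 unit is a doubling, and a change is the mean at 90 weeks minus the mean at 10 weeks. The ages were tested against each other tissue by tissue, with limma across all genes and Benjamini-Hochberg adjustment. A gene was called when its adjusted p was under 0.05. In the liver, 2 of the 9 clock genes tested were called, where 27.5% of all 27906 genes were. Of these, 1 was higher (background 10.5%) and 1 lower (17%). The lung had 1 call among 10, against a background of 5.61% (2.72% higher, 2.89% lower). The kidney had 3 among 9, against 63.1%, of which 2 were higher (20.6%) and 1 lower (42.6%). WAT had 0 among 10, against 2.59% (2.01% higher, 0.579% lower). In WAT, 3 clock genes had an unadjusted p under 0.05, and limma on all 24 arrays together called 2. The shares of all genes for these counts are not given here, so the counts cannot be set against the 2.59%. The share of called clock genes was thus near or below the background in the liver, kidney and WAT, and rests on 1 gene in the lung. The clock genes that were called were Nr1d1, Per2 and Cry1, and none of the other 7 was called in any tissue. With 3 mice against 3, an exact permutation test of a single gene cannot go below p = 0.1. The labels number the samples of a group and do not say more of their origin, so the p-values measure the spread between these samples. All arrays of a tissue share a slide, so a tissue cannot be told apart from its slide.

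**Figure D1:**
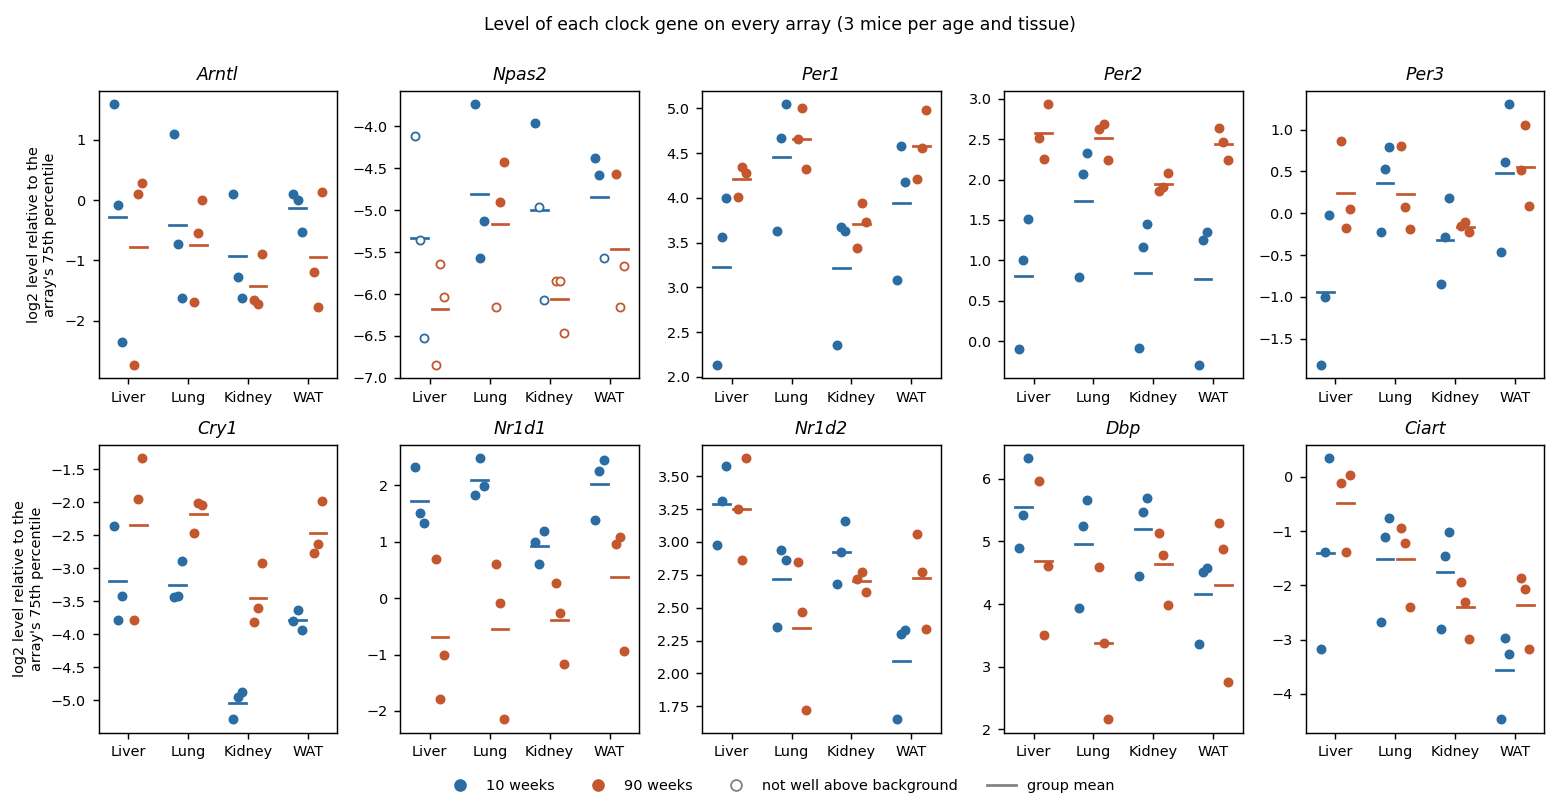
Level of each of the 10 clock genes on every array, as log2 of the signal less the 75th percentile of the array, with 1 panel per gene, tissues along the x axis, blue points at 10 weeks, orange points at 90 weeks and bars at the group means. Open points were not well above background. Nr1d1 at 90 weeks lies below every 10-week array of the same tissue, while the groups of Arntl and Dbp overlap in all 4 tissues.

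Nr1d1, which encodes the repressor REV-ERB alpha, had a lower mean in aged mice in all 4 tissues, and its age groups did not overlap in any of them. In the liver its log2 level was 2.33, 1.51 and 1.34 in the young mice and 0.70, -1.78 and -1.0 in the aged mice. It fell by 2.42 (SE 0.61, adjusted p = 0.0302), a 5.35-fold difference. All 3 aged livers were below the lowest young liver, and aged liver 1 stood closest to the young group. Without any mouse other than aged mouse 1 the call was lost, with adjusted p from 0.0557 to 0.0958.

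In the lung, Nr1d1 was at 1.83, 2.49 and 1.99 in young mice and at 0.61, -0.09 and -2.15 in aged mice. The log2 change was -2.64 (SE 0.70), the largest in size of any clock gene, yet the adjusted p was 0.0846 and it was not called. Aged lung 3 stood far below the other aged lungs. Without that mouse the log2 change was -1.84 and the adjusted p was 0.0490.

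In the kidney, Nr1d1 was at 0.99, 0.61 and 1.2 in young mice and at 0.27, -0.26 and -1.16 in aged mice. It fell by 1.32 (SE 0.37, adjusted p = 0.0212), with every aged kidney under every young one. Scaled to the spike-in spots, which moves the median change of all kidney genes from -0.23 to 0.15, the log2 change was -0.93 and the adjusted p 0.0745. The call was also lost without young mouse 1 (adjusted p = 0.0572) or young mouse 3 (adjusted p = 0.0626). In WAT, Nr1d1 was at 1.39, 2.25 and 2.45 in young mice and at 0.96, 1.09 and -0.93 in aged mice. The log2 change there was -1.65 (SE 0.61, adjusted p = 0.218) and was not called, although the groups were separate. Groups that do not overlap were common: in liver, lung, kidney and WAT they made up 49.8%, 35.8%, 70.7% and 28.8% of all genes tested, and 3 of 9, 2 of 10, 3 of 9 and 4 of 10 of the clock genes.

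Nr1d2, which encodes the sister receptor REV-ERB beta, did not follow Nr1d1. Its log2 change was -0.04 (liver), -0.37 (lung), -0.22 (kidney) and 0.63 (WAT), with adjusted p between 0.197 and 0.922. In the liver and kidney the sign turned under quantile normalization or spike-in scaling, to at most 0.17.

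Among the Period genes, which encode inhibitors of BMAL1, Per2 had a higher mean in aged mice in all 4 tissues on its brighter probe. In the liver its log2 level was -0.10, 1.00 and 1.51 in young mice and 2.52, 2.26 and 2.94 in aged mice. It rose by 1.78 (SE 0.41, adjusted p = 0.0234), or 3.42-fold, and the groups were separate. In the kidney it was at -0.08, 1.16 and 1.45 in young mice and at 1.86, 1.91 and 2.08 in aged mice, a rise of 1.1 (SE 0.39, adjusted p = 0.0458). In both tissues the young array numbered 1 was the lowest of its group. Leaving out that array of the tissue gave a liver change of 1.32 (adjusted p = 0.0402) and a kidney change of 0.64 (adjusted p = 0.0115). The liver call was lost without young mouse 2 or aged mouse 1 or 4 (adjusted p from 0.0552 to 0.0651), and the kidney call without young mouse 2 or any aged mouse (adjusted p from 0.0575 to 0.114).

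In WAT, Per2 was at -0.30, 1.25 and 1.35 in young mice and at 2.64, 2.46 and 2.24 in aged mice. The log2 change of 1.68 (SE 0.46, adjusted p = 0.130) separated the groups and was not called. In the lung it was at 0.79, 2.07 and 2.33 in young mice and at 2.63, 2.69 and 2.24 in aged mice, with overlap and a log2 change of 0.79 (SE 0.41, adjusted p = 0.273). Without young mouse 1 the log2 change was 1.14 in WAT and 0.32 in the lung. The aged mice lay within an SD of 0.34 or less in every tissue, and the young mice spread with an SD of 0.81 to 0.93.

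The rise of Per2 rests on 1 of its 2 probes. The brighter probe, A_55_P2737144, gave the values above. The dimmer probe, A_52_P536869, was well enough above background to pass in every tissue and gave log2 changes of -0.80 (liver), 0.09 (lung), -0.36 (kidney) and 0.31 (WAT). With the mean of both probes, the log2 change of Per2 was 0.49 in the liver (adjusted p = 0.151), that in the kidney was 0.37 (adjusted p = 0.253), and neither was called. Both probes carry the same RefSeq accession, and where in the transcript each lies was not analysed here.

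Per1, a Period gene that responds quickly to light and hormones, had positive log2 changes in all 4 tissues, of 0.98 (liver), 0.21 (lung), 0.48 (kidney) and 0.64 (WAT). None was called, with adjusted p between 0.141 and 0.751. In the liver, young mouse 1 was at 2.13 and the other young mice were at 3.56 and 4.0, below the aged mice at 4.01, 4.34 and 4.28. Without young mouse 1 the log2 change of Per1 was 0.43 (liver), -0.20 (lung), 0.05 (kidney) and 0.21 (WAT). Scaled to the spike-in spots it was 0.87 in the kidney and was called (adjusted p = 0.0414). Per3 showed no shared direction: its log2 change was 1.19 in the liver (SE 0.48, adjusted p = 0.101), and -0.13 (lung), 0.16 (kidney) and 0.06 (WAT) elsewhere.

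Cry1, which encodes the main transcriptional inhibitor of the loop, had a higher mean in aged mice in all 4 tissues. In the kidney its log2 level was -5.29, -4.95 and -4.87 in young mice and -3.81, -3.61 and -2.92 in aged mice. It rose by 1.59 (SE 0.25, adjusted p = 0.00226), or 3.01-fold, and all 15 other settings that were fitted also called it. The probe is dim in the kidney, and with the normexp background correction the rise was 0.76. Its other probe gave a log2 change of 1.43 there.

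In the lung, Cry1 was at -3.44, -3.42 and -2.89 in young mice and at -2.47, -2.01 and -2.04 in aged mice. It rose by 1.08 (SE 0.20, adjusted p = 0.0421), with no overlap between the ages. That call was lost when any of the 3 young mice or aged mouse 2 or 3 was left out, with adjusted p from 0.0650 to 0.159. In WAT it was at -3.80, -3.63 and -3.93 in young mice and at -2.77, -2.64 and -1.98 in aged mice, where the log2 change of 1.32 (SE 0.25) had an adjusted p of 0.0587.

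In the liver, Cry1 was at -2.36, -3.79 and -3.42 in young mice and at -3.78, -1.95 and -1.33 in aged mice. The groups overlapped, since aged mouse 1 lay among the young livers, and the log2 change of 0.83 (SE 0.66, adjusted p = 0.358) was not called. The second Cry1 probe gave 0.24 in the liver, 1.38 in the lung and 0.99 in WAT.

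Arntl and Npas2, which belong to the activator arm, were not called in any tissue where they were tested. Clock, of the same arm, is described below with the further clock genes and was called lower in the liver and kidney. Arntl, the gene of BMAL1, was at 1.60, -0.08 and -2.35 in the young livers and at -2.74, 0.11 and 0.28 in the aged livers. Mice of the same age lay farther apart than the age means, and the log2 change of -0.51 (SE 1.15, adjusted p = 0.756) was smaller than its error. Its log2 change was -0.32 (lung), -0.49 (kidney) and -0.81 (WAT), none called and all with overlapping groups. Without young mouse 1 of the tissue the sign turned in 3 tissues, to 0.43 in the liver, 0.43 in the lung and 0.02 in the kidney. Without aged mouse 1 of the tissue it turned to 0.47 in the liver and 0.15 in the lung.

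Npas2, which can take the place of CLOCK beside BMAL1, was near background. It was well above background on 0 of 6 liver arrays and on 1 of 6 kidney arrays, and was not tested there. It was measured on 5 lung arrays and 3 WAT arrays, with log2 changes of -0.35 (adjusted p = 0.745) and -0.61 (adjusted p = 0.542). In the kidney, young mouse 1 alone was well above background.

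Dbp, a transcription factor whose transcription follows BMAL1 closely, had log2 levels of 4.89, 5.42 and 6.33 in the young livers and of 5.96, 3.51 and 4.60 in the aged livers. Its log2 change was -0.86 (SE 0.64) in the liver and -1.57 (SE 0.72) in the lung. It was -0.57 (SE 0.42) in the kidney and 0.15 (SE 0.73) in WAT, all with adjusted p between 0.221 and 0.929. The age groups overlapped in all 4 tissues. Ciart, a repressor of BMAL1 that is also an E-box target, had log2 changes of 0.91 (liver), -0.01 (lung), -0.65 (kidney) and 1.19 (WAT), none called. Without young mouse 1 the liver change of Ciart was 0.02, and the kidney change was -1.18 and then called (adjusted p = 0.0311). A second Ciart probe also gave 0.02 in the liver.

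**Figure D2:**
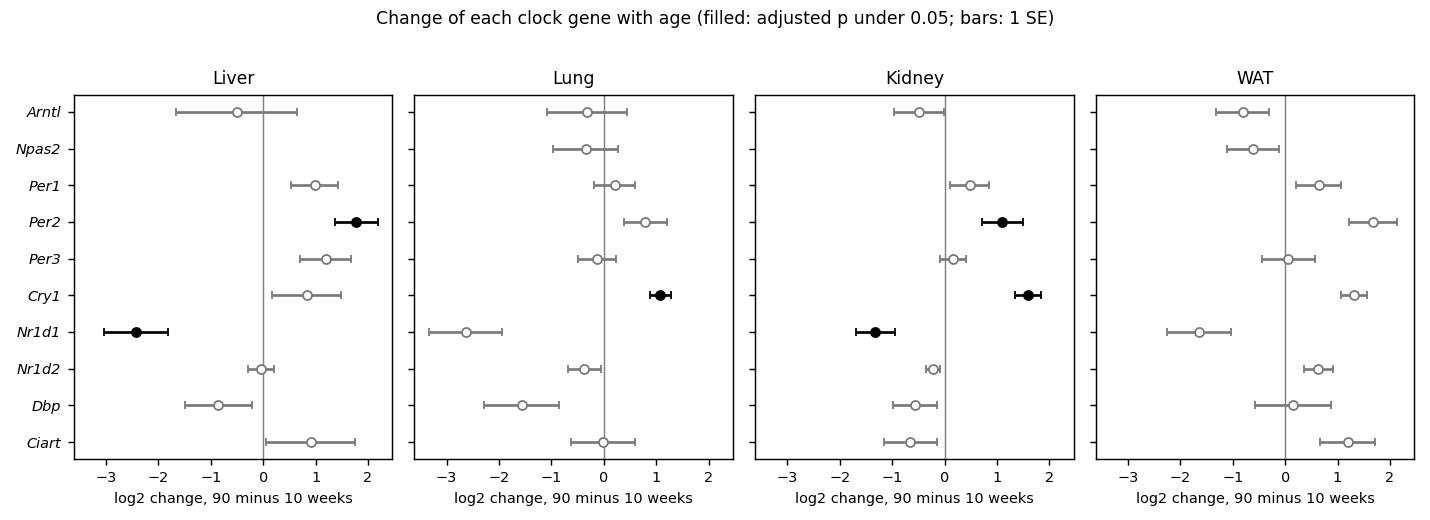
Log2 change from 10 to 90 weeks of each clock gene on the x axis, with 1 panel per tissue and bars of 1 SE from limma; filled points had an adjusted p under 0.05, and Npas2 was not tested in the liver and kidney. Nr1d1 lies left of 0 and Per2 and Cry1 lie right of 0 in all 4 panels.

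Of the 9 clock genes tested in all 4 tissues, 2 were lower at 90 weeks in every tissue (Arntl and Nr1d1) and 3 were higher in every tissue (Per1, Per2 and Cry1). Without the young array numbered 1 of a tissue this no longer held for Arntl and Per1. Without the aged array numbered 1 of a tissue it no longer held for Arntl. With the dimmer Per2 probe it did not hold for Per2. Among 25797 genes tested in all 4 tissues, 26.3% were lower in every tissue and 12.1% were higher. Whether the change differed between tissues was tested with an F-test of the tissue-by-age terms over the 24 arrays. It called 0 of 9 clock genes, where 37.5% of 25785 genes were called, and 0 clock genes had an unadjusted p under 0.05 in it. The adjusted p ran from 0.161 for Nr1d2 to 0.989 for Arntl. This count depends on taking the arrays of a number in different tissues as independent, although the clock genes deviated alike by number, as described below. With a block for each number within each age, a setting chosen after seeing the data, the F-test called 4 of 9 clock genes. These were Per2, Nr1d2, Dbp and Ciart, with adjusted p from 0.00733 to 0.0457, where 36.6% of all genes were called. Aged liver 4 is alone in its block, so the aged liver terms of that fit rest on aged livers 1 and 2. In that fit the change of Per2 in the liver minus that in the lung was 0.74. The change of Ciart in the kidney minus that in WAT was -1.85 in both fits, with an SE of 1.05 (adjusted p = 0.207) without the block and 0.48 (adjusted p = 0.0135) with it. Without the block the intervals were wide: the change of Nr1d1 in the lung minus that in the kidney was -1.33, with a 95% interval from -3.33 to 0.67, and the change of Per2 in the liver minus that in the lung was 0.99, from -0.43 to 2.40. For Nr1d2 the change in the lung minus that in WAT was -1.0, with an interval from -1.82 to -0.17 and an adjusted p of 0.185, and with the block the interval was -1.47 to -0.53 and the adjusted p 0.0272.

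Setting genes against each other on the same array removes the scaling of the array. The night genes Arntl and Npas2 and the day genes Nr1d1, Nr1d2, Dbp, Ciart and Per3 were each averaged as the distance from the 10-week mean in the lung and WAT, where Npas2 passed the filter on low values. In the lung, night minus day was 1.98, -0.82 and -1.15 on the young arrays and -1.16, 0.69 and 2.30 on the aged arrays. In WAT it was 1.09, -0.10 and -1.0 at 10 weeks and -0.95, -1.98 and 0.56 at 90 weeks, so the ages overlapped in both tissues. Arntl minus Dbp, a pair known for opposite phases, had an aged mean of 0.35 ± 2.83 (SD, n = 3) in the liver, 1.25 ± 2.07 (lung), 0.07 ± 1.03 (kidney) and -0.96 ± 2.29 (WAT), relative to 0 at 10 weeks, and overlapped in every tissue. Single mice of 1 age were farther apart on this scale than the age means.

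The pair Per2 minus Nr1d1 joins a gene whose mean rose and a gene whose mean fell. Relative to the young mean this difference was 2.75, 4.97 and 4.87 in the aged livers, where the young livers lay between -1.51 and 1.09. The aged mean was 4.19 ± 1.25 (SD, n = 3) in the liver, 3.43 ± 1.21 (lung), 2.42 ± 0.84 (kidney) and 3.33 ± 0.97 (WAT), and the ages did not overlap in any tissue. With the dimmer Per2 probe the aged means were 1.62, 2.73, 0.96 and 1.96, and the groups overlapped in the kidney. Cry1 minus Nr1d1 had aged means of 3.25 ± 2.44, 3.72 ± 1.61, 2.91 ± 1.19 and 2.98 ± 1.54 in the same order, again with no overlap. Aged liver 1, at 0.43, stood just above the highest young liver, at 0.23. These 2 pairs were chosen after their values had been seen and share the Nr1d1 probe, so they describe the arrays and were given no test. The aged mean of a pair is the change of its first gene minus that of its second. It therefore restates the changes of single genes given above and adds no separate result on phase.

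**Figure D3:**
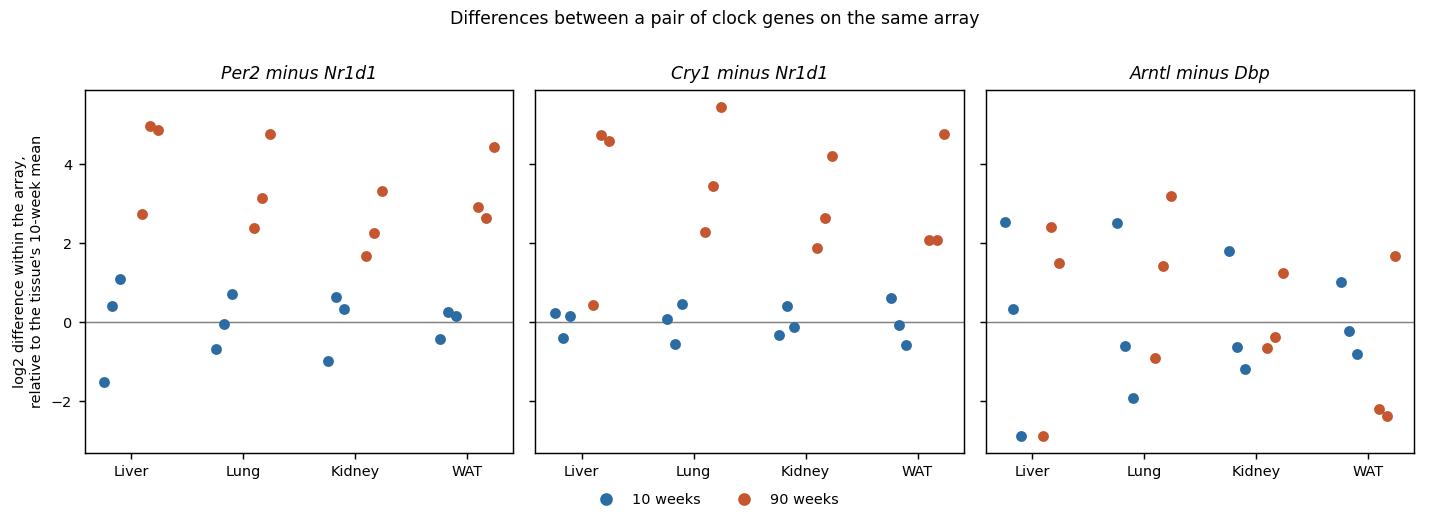
Log2 difference between a pair of clock genes on the same array, relative to the 10-week mean of the tissue, for Per2 minus Nr1d1, Cry1 minus Nr1d1 and Arntl minus Dbp, with 1 point per array. The ages are apart in all 4 tissues in the left and middle panels, where the aged means lie between 2.42 and 4.19, and they overlap in the right panel.

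Clock genes varied more between mice of 1 age than most genes did. The SD within groups had a median over the clock genes of 0.97 (liver), 0.76 (lung), 0.56 (kidney) and 0.72 (WAT), against 0.26, 0.18, 0.16 and 0.34 over all genes tested. The number of clock genes above the 90th percentile of all genes was 8 of 9 (liver), 8 of 10 (lung), 6 of 9 (kidney) and 2 of 10 (WAT). Arntl in the liver had an SD of 1.85, at percentile 99.7. The lowest SD among the clock genes tested was that of Nr1d2 in the liver (0.35) and kidney (0.18) and that of Cry1 in the lung (0.29) and WAT (0.32).

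**Figure D4:**
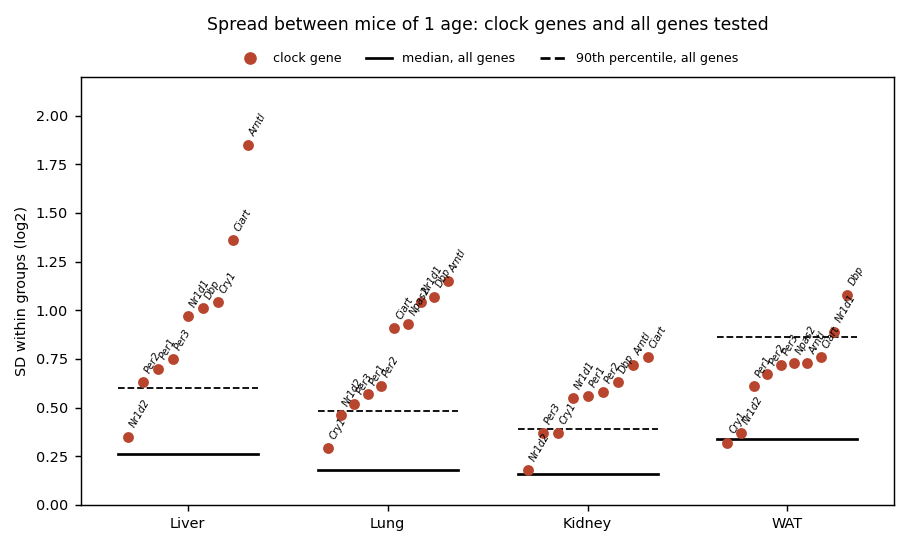
SD between mice within age groups, on the log2 scale, for each clock gene tested (points) in each tissue, with the median (solid line) and 90th percentile (dashed line) of all genes tested. Most clock genes lie above the dashed line in the liver, lung and kidney, and 2 of 10 do in WAT.

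For many clock genes the spread between mice followed the numbers in the labels. At 10 weeks Arntl was highest in the array numbered 1 and lowest in that numbered 3 in all 4 tissues, and Dbp, Per2 and Per3 were highest in 3 and lowest in 1. Per1, Nr1d2 and Ciart were lowest in number 1. Of the 9 clock genes tested in all 4 tissues, which leaves out Npas2, 4 had the same number highest in every tissue and 7 had the same number lowest, where 3.86% and 4.68% of all genes did. Of the genes called with age, Per2 was among those that followed the number in the young mice, and Cry1 and Nr1d1 were not.

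At 90 weeks the lung, kidney and WAT, which share the numbers 1 to 3, were compared in the same way. Arntl was highest in number 3, whereas Dbp and Ciart were highest in number 1 and lowest in 3. Per3, Nr1d1 and Nr1d2 were lowest in number 3 and Cry1 was lowest in number 1. Here 3 clock genes had the same number highest and 6 the same number lowest, against 10.8% and 12.5% of all genes. At both ages the number that was highest for Arntl was lowest for Dbp. The labels do not tie the tissues to mice, so whether arrays of 1 number come from 1 mouse is not given in the sources used here.

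**Figure D5:**
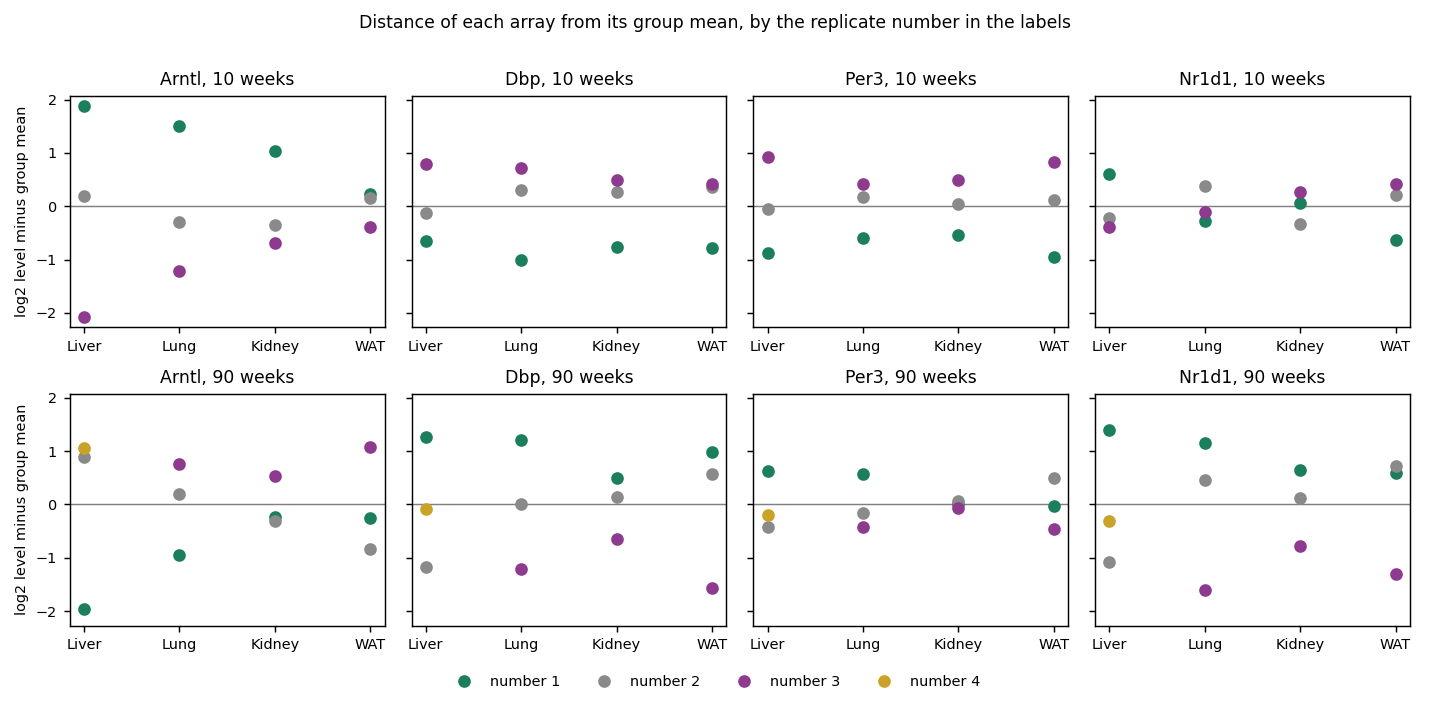
Distance of each array from the mean of its age and tissue, on the log2 scale, for Arntl, Dbp, Per3 and Nr1d1, with the colour giving the number in the labels and 10 weeks above 90 weeks. At 10 weeks number 1 is highest for Arntl and lowest for Dbp and Per3 in each of the 4 tissues, and at 90 weeks number 3 is lowest for Dbp and Nr1d1 in the 3 tissues that hold it.

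The genes most like Arntl and Dbp were ranked by Pearson correlation over the 24 arrays after the mean of each tissue was removed, among 15509 genes. Among the nearest to Arntl were Leo1 (r = 0.857), Tcl1 (0.697), Scml2 (0.688) and Tmem179 (0.687). Nearest to Dbp were Lrrc14 (r = 0.809), Faap100 (0.804), Mesd (0.792), Nfic (0.781) and Cetn3 (0.779). The arrays of a tissue share a slide and may share mice across tissues, so these values rank likeness and are given without a test.

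Of 20 further clock genes, 18 were tested in the liver and 19 in each other tissue. In the liver 4 of 18 were called (background 27.5%): Clock, the partner of BMAL1, fell by 1.2, and Bhlhe40, a repressor of E-box genes, rose by 1.00. The casein kinase gene Csnk1e rose by 1.25 and Timeless by 0.95. The call of Clock was lost with spike-in scaling (adjusted p = 0.0639) and without any mouse other than aged mouse 4 (adjusted p from 0.0501 to 0.104), and that of Timeless was held by 1 of the 6 fits that left out a mouse. In the lung 1 of 19 was called, against a background of 5.61%. In WAT limma called 0 of 19, against a background of 2.59%. There 2 had an unadjusted p under 0.05 and the joint fit of 24 arrays called 1, counts for which the shares of all genes are not given here.

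In the kidney 10 of 19 were called, against a background of 63.1%, of which 6 were lower (background 42.6%) and 4 higher (20.6%). That split turned to 1 lower and 9 higher under spike-in scaling and was 4 lower and 6 higher under quantile normalization. Among the 10, Clock fell by 0.48, the DBP relatives Tef and Hlf fell by 0.76 and 0.70, and the ubiquitin-system genes Fbxl21 and Usp2 fell by 1.1 and 0.97. Under spike-in scaling Fbxl21 alone of these 5 was still called lower (-0.71, adjusted p = 0.00389), and Clock was at -0.09. The call of Usp2 was also lost in 4 of the 6 fits that left out a mouse. Csnk1e rose by 1.23, Timeless by 1.17 and Arntl2, a relative of Arntl, by 0.96. Bhlhe41 was well above background on no young kidney and on all 3 aged kidneys, so it passed the filter through the aged kidneys alone and its call rests on young values that were not measured above background. Its log2 change was 1.66, and with the normexp background correction it was 0.25 and not called (limma adjusted p = 0.265). Of the 15 other settings that were fitted, 10 called Bhlhe41. Bhlhe41 is counted among the 10 called and the 4 higher. Clock had negative log2 changes in the lung and WAT too, of -0.43 (adjusted p = 0.110) and -0.71 (adjusted p = 0.182). Its ages did not overlap in any of the 4 tissues. The same held within the tissue for 49.8% (liver), 35.8% (lung), 70.7% (kidney) and 28.8% (WAT) of all genes tested.

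Genes that follow glucocorticoids or appear soon after a stimulus were measured beside the clock genes, and Per1 and Per2 are themselves known to respond to glucocorticoids. In the liver 2 of 4 glucocorticoid-responsive genes were called, Sgk1 with a rise of 1.11 and Zbtb16 with a rise of 1.29, and 0 of 7 immediate early genes were, 2 of them with an unadjusted p under 0.05 (background 27.5% called). In the kidney, where the background was 63.1%, 1 of 4 was called, Tsc22d3 with a rise of 1.00. Of the 7 immediate early genes 3 were called there, and 5 had an unadjusted p under 0.05. The 3 called were Fos with a rise of 3.30, Jun with 1.48 and Junb with 1.18. In WAT, with a background of 2.59%, Fos alone of the 11 was called and rose by 3.58 (SE 0.56, adjusted p = 0.0361). All 7 immediate early genes had positive log2 changes in WAT, where the median change of all genes was -0.05, and 6 of them had an unadjusted p under 0.05. Of the 4 glucocorticoid-responsive genes, 0 had such a p there. In the lung limma called 0 of these 11 genes (background 5.61%), 1 with an unadjusted p under 0.05. The backgrounds given with these counts are shares called at an adjusted p under 0.05. The shares of all genes with an unadjusted p under 0.05 are not given here. The part of the glucocorticoid-responsive and immediate early genes in the changes of the clock genes was not tested.

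Markers of leukocytes, macrophages among them, also moved with age. Of 12 leukocyte markers, the number called higher was 5 (liver), 3 (lung), 12 (kidney) and 6 (WAT), where 10.5%, 2.72%, 20.6% and 2.01% of all genes were, and 0 were called lower. The log2 of their summed signal was 5.74 to 6.19 in young and 7.65 to 10.29 in aged livers. It was 7.27 to 7.93 and 8.67 to 10.16 for the lungs, 5.25 to 5.37 and 7.39 to 7.73 for the kidneys, and 5.88 to 7.75 and 8.35 to 9.95 for WAT. All 5 markers of its own tissue passed the filter on low values in each tissue, and of these 2 were called lower in the liver (background 17%) and 3 lower and 1 higher in the kidney (background 42.6% and 20.6%). Markers of other tissues moved as well. The log2 sum of 5 adipose markers was 6.03 to 6.92 in young and 1.45 to 4.55 in aged lungs, with 1 called lower. In the kidney it was 3.62 to 3.81 and 4.15 to 4.93, with 4 called higher and 1 lower. The liver markers summed to 8.11 to 8.26 in young and 6.52 to 7.45 in aged kidneys, and all 4 that were tested were called lower. In the liver the adipose sum was 2.61 to 3.84 and 4.12 to 4.46, with 1 called higher and 2 lower. In whole tissue, fewer cells of a type and less RNA per cell cannot be told apart. The part of leukocytes or of other tissues in the clock gene changes was not tested.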

How the data were processed

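RNA of 24 mouse tissue samples was hybridised to Agilent arrays in 1 colour. The intensity values were deposited as the authors' scanner output: per the labels they came from Feature Extraction 11.0.1.1, whose processed signal is background-subtracted and not scaled between arrays. The file headers give a mouse design, while the methods name a human kit. Probe accessions were matched to RefSeq symbols (32994 of 56605 probes). Outlier spots (1841) were dropped and log2 signals averaged per probe, less the array's 75th percentile. A probe had to be well above background on 3 or more of the 6 arrays of a tissue, and the brightest stood for a gene. Ages were compared per tissue with limma 3.58.1 in R 4.3.3, Benjamini-Hochberg at 0.05, and tissues with an F-test over all arrays. The code was tested on simulated data. Between 58.6% and 71.1% of probes per array were well above background, and the number of arrays limits the precision. The 10 clock genes and all lists were chosen with earlier results of these data known. All 10 were named, the other listed genes where called, and the 5 genes most like Arntl and Dbp, except 3 genes that are not reported here. Alternatives were normexp, quantile, spike-in and median scaling, no filter, probe means, a replicate block, a Student test, a joint fit, each mouse left out and, for the tissue F-test, a block by number within age.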

Additional observations from a re-analysis of the deposited data

Results flagged for a closer look

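Without a block for the numbers, the F-test of the tissue-by-age terms called 0 of the 9 clock genes tested, which leaves out Npas2, and 37.5% of all genes. With the block it called 4 of 9 and 36.6% of all genes. The calls that follow are those without the block. Beside the clock genes stood 20 further clock genes, 4 glucocorticoid-responsive genes and 7 immediate early genes, most of them tested. Of these, 5 changed with age differently between tissues, a share below that of all genes. Their values with the block are not given here. Csnk1e, a kinase that acts on the PER proteins, had log2 changes of 1.25 (liver), -0.03 (lung), 1.23 (kidney) and 0.43 (WAT) (adjusted p of the difference 0.00478). Timeless had log2 changes of 0.95, 0.07, 1.17 and -0.04 in the same order (adjusted p = 0.0332). Arntl2 rose in the kidney by 0.96 and had log2 changes of -0.15, -0.11 and -0.05 in the liver, lung and WAT (adjusted p = 0.00397). Fbxl21 fell in the kidney by 1.1 and had log2 changes of -0.40, -0.12 and 0.02 in the other tissues (adjusted p = 0.0138). Atf3, an immediate early gene, had log2 changes of 1.13 (liver), -0.47 (lung), 2.25 (kidney) and 3.31 (WAT), none called within its tissue (adjusted p of the difference 0.0362).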

How the results depend on the processing

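Over all clock genes, tissues and alternatives, 524 values kept their direction and, where tested, their side of the threshold, 37 lost a call, 8 gained one and 32 turned their sign. Values from other probes of a gene are counted there but were not tested, so only their direction was compared. The count of called clock genes fell from 2 to 1 in the liver with the mean of the probes and to 0 with the replicate block or the unpaired Student test, and from 1 to 0 in the lung with those 3 settings and with no filter on dim probes. In the lung the joint fit of 24 arrays still called 1, but it was Nr1d1 (adjusted p = 0.0395) and not Cry1 (0.241). Without aged lung 3 the call was likewise Nr1d1 and not Cry1 (adjusted p = 0.0914). Cry1 in the lung was called in 5 of 15 alternatives. In the kidney the joint fit of 24 arrays and the Student test called 1 in place of 3. In WAT the joint fit called 2 in place of 0. The shares of all genes called under these alternatives are not given here. For the other clock genes the joint fit called 7 (liver), 0 (lung), 6 (kidney) and 1 (WAT), the replicate block called 1 in the liver and 0 in the lung, the Student test called 2 in the liver and 0 in the lung, and in the lung quantile normalization called 2 and spike-in scaling 0. Leaving out each mouse gave 0 to 2 (liver), 0 to 1 (lung), 2 to 3 (kidney) and 0 (WAT) called clock genes, 2 to 4, 0 to 1, 8 to 10 and 0 of the other clock genes, and always 0 clock genes whose change differed between tissues. A block for each number within each age, added after seeing the data, called 4 of 9 in place of 0 for that difference. The cause was not tested.

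Same-numbered young and aged arrays deviated with correlations from -0.17 to 0.18, so the numbers share no more than a name across ages, and the replicate block is a value only. Within an age, same-numbered arrays of different tissues deviated over all genes with correlations from -0.16 to 0.14 at 10 weeks and -0.21 to 0.30 at 90 weeks. These values run over all genes and cannot show whether a number is 1 mouse, and many clock genes did deviate alike by number. The numbers were not taken as pairing tissues because the labels do not tie tissues to mice. Spike-in scaling moved the change of all genes by 0.39 in the kidney, 0.11 in the liver and -0.10 in the lung, and centring on the median moved it by -0.11 in the kidney. In the phase comparison, Arntl minus Dbp gave 0.35 (liver), 1.25 (lung), 0.07 (kidney) and -0.96 (WAT). Per2 minus Nr1d1 and Cry1 minus Nr1d1, chosen after seeing the data, gave 4.19 and 3.25 (liver) and 3.43 and 3.72 (lung). They gave 2.42 and 2.91 in the kidney and 3.33 and 2.98 in WAT, and restate the changes of the single genes.

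The sign turned with another probe for Per2 in the liver (-0.80) and kidney (-0.36), Nr1d2 in the liver (0.01) and Per3 in the lung (0.04) and WAT (-0.23). Quantile normalization turned Nr1d2 in the liver (0.09) and kidney (0.06), and spike-in scaling turned it to 0.07 and 0.17. Normexp turned Ciart in the lung (0.02), and the mean of the probes turned Per3 in WAT (-0.08). Leaving out 1 mouse moved the liver value of Arntl between -1.55 and 0.47 and that of Nr1d2 between -0.23 and 0.16. In the lung the ranges were -0.93 to 0.43 for Arntl, -0.73 to 0.19 for Npas2, -0.20 to 0.51 for Per1, -0.43 to 0.08 for Per3 and -0.59 to 0.43 for Ciart. In the kidney they were -0.84 to 0.02 for Arntl and -0.11 to 0.40 for Per3, and in WAT -0.41 to 0.48 for Per3 and -0.34 to 0.93 for Dbp. Leaving out the young array numbered 1 of a tissue turned the sign in 3 tissues for Arntl and in 1 or 2 for Npas2, Per1, Per3 and Dbp. Leaving out the aged array numbered 1 also turned it for Arntl in the liver and lung and for Npas2 in the lung.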
